A study of Mus musculus with 9 samples.

Results

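The epidermal growth factor (EGF) receptor family and its ligands were followed in 9 cultures derived from 4T1, a metastatic mammary carcinoma line of the mouse. The genes were a list of 3 receptors (Egfr, Erbb2 and Erbb3) and 7 ligands (Egf, Tgfa, Areg, Hbegf, Btc, Epgn and Ereg), each read from the probe set with the highest mean for its symbol. Of these 10 genes, 9 had a probe set of their own and are described here among 19938 genes tested, and Areg, which encodes the ligand amphiregulin, was not analysed here. The lines fall into 3 origins of 3 lines each: brain metastases (4T1-BM2), lung metastases (4T1-LM2) and primary tumors (4T1-T2), called brain, lung and primary lines and numbered by the mouse of each origin. By the series' own account there were 9 donor mice, 3 per cell line, where a cell line is 1 of the 3 names above. Here each of the 9 cultures is called a line. The titles reuse the numbers 1 to 3 in each origin, and each line gave 1 array. All 9 were thawed together and grown side by side, with no treatment or engineered allele given in the labels, so the values describe cultured cells and not tumors in the animal. The 3 lines of an origin share a name in the labels, so origin cannot be told apart from the named cell line. Whether the 3 share a selected ancestor is not stated.

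The receptors of this family are tyrosine kinases that pair with one another at the cell surface when a ligand binds. EGFR binds the ligands listed here, ErbB2 has no known ligand and acts as a partner, and ErbB3 binds neuregulins, has little kinase activity of its own and recruits PI 3-kinase when paired. The ligands are made as membrane-anchored precursors and most are cut free by ADAM proteases, and in the mammary gland the family drives duct growth and is altered in many carcinomas.

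Each array gave 35557 log2 intensities, with medians between 5.06 and 5.19. The spread of each array around the probe set medians (interquartile range) was 0.201 for brain line 3 and 0.186 for lung line 1, the widest of the 9, while the remaining 7 ranged from 0.116 to 0.141. Probe sets without any gene symbol had a median of 4.21, here called the unnamed median, and for genes that average less than this in any origin only the levels are given. Of 7 mammary epithelial markers, 6 lay above that median in every line, the exception being the basal keratin gene Krt5. Of 33 markers of leukocytes, endothelium, fibroblasts and pericytes, astrocytes, neurons, oligodendrocytes and lung epithelium, limma called 0 in any comparison. At an unadjusted p under 0.05, 4 of them (12.1%) passed in brain against primary lines, where 15.8% of all genes did, 3 (9.09%) in brain against lung lines, where 14.9% did, and 0 in lung against primary lines, where 4.74% did. Above the unnamed median in every line were 2 of 6 leukocyte markers (Cd68 and Cd3e) and 1 of 4 astrocyte markers (Slc1a2). So were 1 of 5 endothelial (Vwf) and 3 of 6 fibroblast and pericyte markers (Col1a1, Col1a2 and Pdgfra). The same held for 2 of 4 neuron, 2 of 3 oligodendrocyte and 3 of 5 lung epithelium markers. Under that median in all 9 lines lay, among others, the leukocyte gene Ptprc (3.63 to 4.02) and the astrocyte gene Aqp4 (3.43 to 3.77).

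Among the 9 genes, Erbb3 was higher and Tgfa lower in brain than in primary lines, and Tgfa was also lower in brain than in lung lines. No other call was made among them, where limma called 3.13% of all genes against primary and 1.98% against lung lines. For Erbb3 the brain lines were about 1.80-fold above the primary lines, and for Tgfa about 1.41-fold below them. Tgfa and Epgn were lower in each brain line than in all 6 other lines, which was so for 22.2% of the 9 genes and for 5.05% of all genes tested. Erbb3 was higher in each brain line than in all 6 others, as were 5.3% of all genes. The comparisons against primary and against lung lines use the same brain lines, so neither is a repeat of the other. Since Tgfa and Epgn are the ligands that were lower in every brain line, the 250 bases before their annotated starts are shown from RefSeq (GRCm38.p6, plus strand, chr6:86194972-86195221 and chr5:91027267-91027516), with matches to the searched motifs in capitals.
Tgfa: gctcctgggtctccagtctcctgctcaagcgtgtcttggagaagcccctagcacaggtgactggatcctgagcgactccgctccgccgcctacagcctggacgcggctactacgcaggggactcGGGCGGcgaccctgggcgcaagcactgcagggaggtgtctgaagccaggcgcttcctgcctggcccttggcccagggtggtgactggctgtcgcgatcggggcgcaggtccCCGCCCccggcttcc
Epgn: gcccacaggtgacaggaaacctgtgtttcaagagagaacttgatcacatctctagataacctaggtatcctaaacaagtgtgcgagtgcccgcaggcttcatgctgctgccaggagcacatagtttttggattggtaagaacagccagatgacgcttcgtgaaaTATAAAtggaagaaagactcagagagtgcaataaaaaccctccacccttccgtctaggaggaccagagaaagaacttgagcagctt
Both strands were searched for the TATA box, spelled TATAAA, and for the GC box, spelled GGGCGG. The search also covered the AP-1 motif, spelled TGANTCA, the cyclic AMP response element (CRE), spelled TGACGTCA, and the TEAD motif, spelled GGAATG, and no match overlapped another. The Tgfa window held 2 GC boxes, whose first bases lay -126 and -15 from the start, and the GC box stood in 32.7% of all 32851 windows of this length. The Epgn window held 1 TATA box, at -86, a motif found in 12.4% of all windows. AP-1 letters stood in 6.75%, CRE letters in 1.55% and TEAD letters in 12.6% of all windows, and in neither of the windows shown. Of the 9 measured genes, 6 had an entry in this table.

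**Figure D1:**
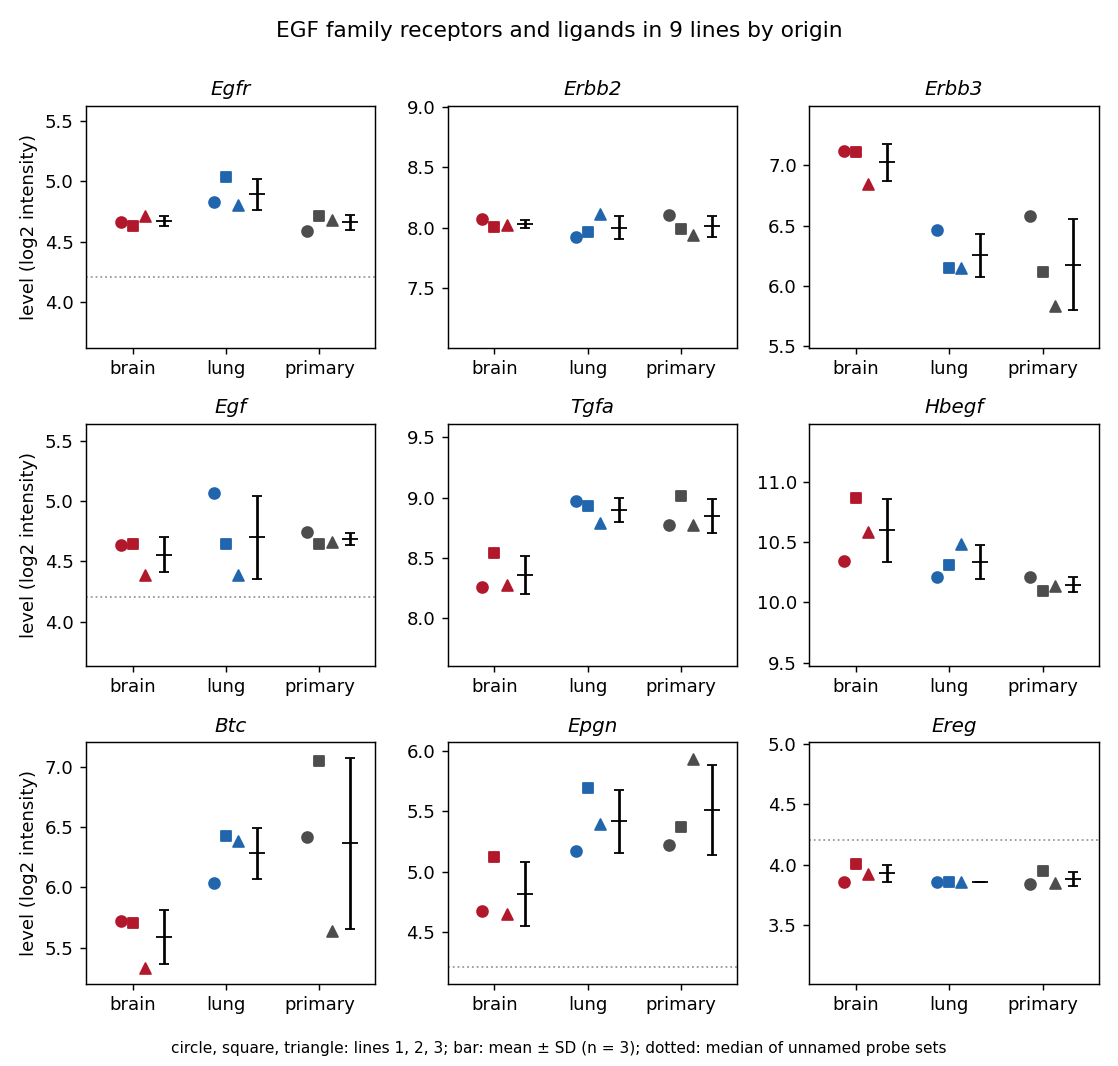
Levels (log2 intensity, y axis) of the 9 measured genes in brain, lung and primary lines. Each point is 1 line, black bars give the mean ± SD (n = 3), each panel spans at least 2 log2 units, and the dotted line, where drawn, is the unnamed median (4.21). Erbb3 stands higher and Tgfa and Epgn stand lower in every brain line than in the other 6 lines.

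Among the receptors, Erbb3 had log2 levels of 7.12, 7.11 and 6.85 in brain lines 1 to 3, 6.46, 6.15 and 6.15 in lung lines and 6.58, 6.12 and 5.84 in primary lines. The brain lines were the highest and did not overlap either of the other origins, and primary line 1 was the nearest below them. Erbb3 averaged 7.03 ± 0.15 in brain, 6.25 ± 0.18 in lung and 6.18 ± 0.38 in primary lines (SD, n = 3 each). It rose in brain against primary lines by 0.85 ± 0.17 on the log2 scale (SE, limma adjusted p = 0.0317). In brain against lung lines the difference was 0.77 ± 0.17, an adjusted p of 0.0571 that did not pass in the limma fit without a block. With the mouse number as a block it did pass (adjusted p = 0.0147), though the numbers mark no known pairing of the mice. It also passed when primary line 1 (0.0311) or 3 (0.0343) was left out, and in 4 other alternatives (0.0302 to 0.0421). In all, the difference against lung lines passed in 7 of 17 alternatives, with adjusted p up to 0.196. Of the 9 fits that left out a line, it passed in 2. The lung and primary means differed by less than their spread (log2 difference 0.08, 95% interval -0.31 to 0.46). In the F test over the 3 origins Erbb3 lay at the threshold (adjusted p = 0.05004).

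The call of Erbb3 against primary lines was lost in 7 of the 9 fits that left out a line: without brain line 1 (0.089), 2 (0.101) or 3 (0.0524), lung line 2 (0.0582) or 3 (0.0581), or primary line 2 (0.107) or 3 (0.0844). It was also lost with every probe set tested (0.103) and with only the 6 arrays compared (0.112), while the log2 change stayed between 0.68 and 1.05 in all 17 alternatives. The mean level of the 7 mammary epithelial markers was 9.58 to 9.79 in brain lines, 9.13 to 9.26 in lung lines and 8.84 to 9.22 in primary lines, and 3 of the 7 rose in brain against primary lines, while 1 of the 7, Krt14, rose in brain against lung lines (1.84 ± 0.22). The 3 were the adhesion gene Cdh1 (log2 change 0.90 ± 0.19, SE), the keratin gene Krt19 (1.27 ± 0.25) and the basal keratin gene Krt14 (1.62 ± 0.22). The other 4 did not pass in either comparison, with log2 differences against primary lines of 0.45 for Epcam, 0.16 for Krt5, 0.07 for Krt18 and -0.08 for Krt8, and against lung lines of 0.53 for Epcam, 0.02 for Krt5, -0.05 for Krt18 and -0.15 for Krt8. Of all genes, limma called 1.56% higher in brain against primary lines and 0.913% higher in brain against lung lines. The part of these epithelial markers in the Erbb3 result was not tested.

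Erbb2, whose product pairs with ErbB3, showed almost no spread by origin. Its levels were 8.07, 8.01 and 8.02 in brain lines, 7.93, 7.97 and 8.11 in lung lines and 8.11, 7.99 and 7.94 in primary lines, and all 3 origins overlapped. The log2 difference between brain and primary lines was 0.02 (95% interval -0.15 to 0.19), between brain and lung lines 0.03 (-0.13 to 0.20) and between lung and primary lines -0.01 (-0.18 to 0.16). A further probe set carries the symbols of both Erbb2 and Sympk and was not used.

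Egfr, the receptor of these ligands, lay only a little above the unnamed probe sets, with 58.7% of their values below its mean. Its levels were 4.66, 4.63 and 4.71 in brain lines, 4.83, 5.04 and 4.81 in lung lines and 4.59, 4.71 and 4.68 in primary lines. Every lung line was above every brain and primary line, while brain and primary lines overlapped. The log2 difference was -0.22 in brain against lung lines (95% interval -0.40 to -0.05, adjusted p = 0.202) and 0.23 in lung against primary lines (0.06 to 0.40, adjusted p = 0.975), and neither passed in limma. Between brain and primary lines it was 0.01 (-0.17 to 0.18).

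Among the ligands, Tgfa encodes transforming growth factor alpha, a close relative of EGF that binds EGFR. Tgfa had levels of 8.26, 8.54 and 8.28 in brain lines, 8.97, 8.94 and 8.79 in lung lines and 8.77, 9.01 and 8.77 in primary lines. Every brain line was below every other line, and lung and primary lines overlapped. Tgfa averaged 8.36 ± 0.16 in brain, 8.90 ± 0.10 in lung and 8.85 ± 0.14 in primary lines (SD, n = 3 each). It fell by 0.49 on the log2 scale in brain against primary lines (SE 0.10, limma adjusted p = 0.0348) and fell by 0.54 in brain against lung lines (SE 0.10, adjusted p = 0.0301). Lung against primary lines gave 0.05 (95% interval -0.18 to 0.28). In the F test over the 3 origins Tgfa was the member that passed (adjusted p = 0.03758), where 2.36% of all genes did.

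The fall of Tgfa against primary lines passed in 2 of the 9 fits that left out a line, and did not pass when brain line 1 (0.0968) or 3 (0.101) was left out, nor when lung line 2 (0.064) or 3 (0.0518) or any primary line (0.0751, 0.112 and 0.0683 for lines 1 to 3) was, with each array centred on its median (0.0579), over every probe set (0.0989) or with only 6 arrays (0.107). Against lung lines it was lost without brain line 1 (0.0859) or 3 (0.101), any lung line (0.103, 0.128 and 0.0634 for lines 1 to 3) or primary line 1 (0.0521), and likewise when every probe set was tested (0.0936) or only 6 arrays were fitted (0.0752). The log2 change stayed between -0.58 and -0.41 against primary lines and between -0.63 and -0.49 against lung lines in all 17 alternatives of each.

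**Figure D2:**
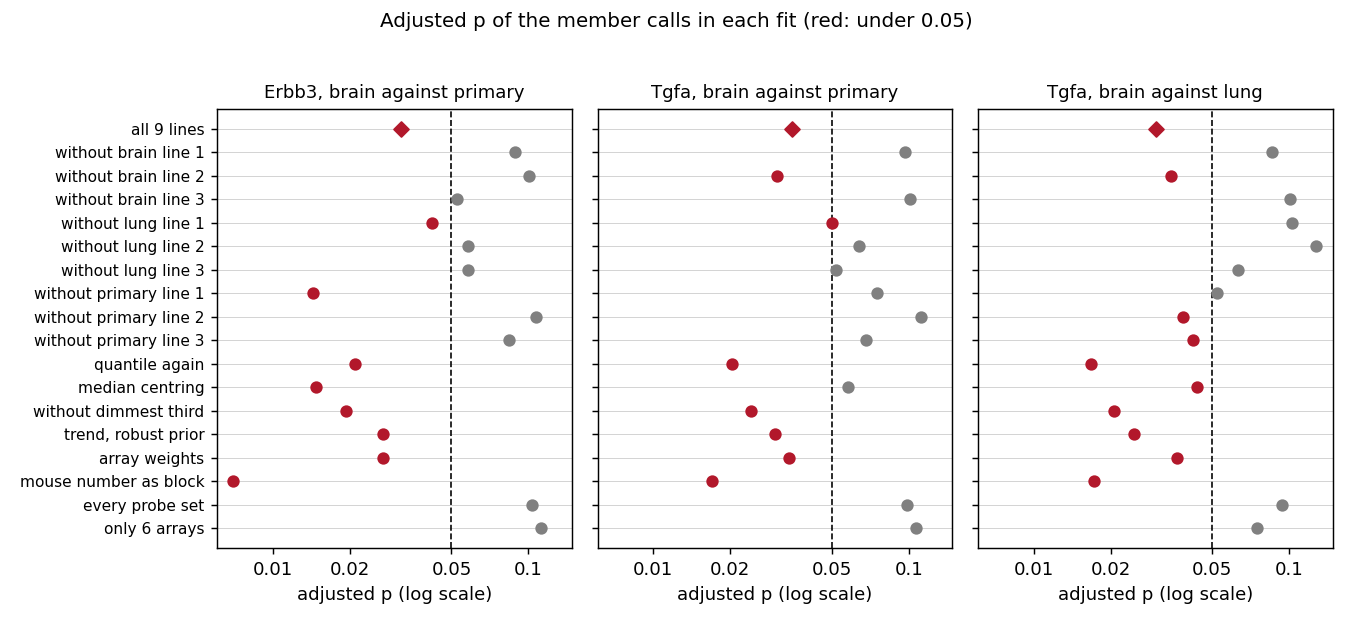
Adjusted p (x axis, log scale) of the 3 calls among the measured genes in the fit of all 9 lines (diamond) and in 17 alternatives (circles), with the threshold of 0.05 dashed. Red marks values under 0.05, which in the fits leaving out a line were 2 of 9 for Erbb3 and Tgfa against primary lines and 3 of 9 for Tgfa against lung lines.

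Epgn encodes epigen, an EGFR ligand of low binding strength. Its levels were 4.68, 5.13 and 4.65 in brain lines, 5.17, 5.69 and 5.39 in lung lines and 5.22, 5.38 and 5.94 in primary lines. Every brain line was below every other line, with brain line 2 close to lung line 1. The log2 difference was -0.70 ± 0.20 against primary lines (SE, adjusted p = 0.112) and -0.60 ± 0.20 against lung lines (adjusted p = 0.190), and neither passed in limma.

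Btc encodes betacellulin, which binds EGFR and ErbB4. Its levels were 5.73, 5.71 and 5.33 in brain lines, 6.04, 6.43 and 6.38 in lung lines and 6.42, 7.05 and 5.64 in primary lines. The primary lines were the most scattered of any group and gene here, spanning 1.41 log2 units (SD 0.71, against 0.22 in brain and 0.21 in lung lines). The brain lines lay below all lung lines, while primary line 3 fell among the brain lines. The log2 difference was -0.78 ± 0.29 against primary lines (SE, limma adjusted p = 0.215) and -0.69 ± 0.29 against lung lines (adjusted p = 0.3). Without primary line 3 the difference against primary lines was -1.14 (adjusted p = 0.0334), the only alternative of 17 in which Btc passed.

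Hbegf encodes heparin-binding EGF-like growth factor, which also binds EGFR and ErbB4. Its levels were 10.34, 10.87 and 10.58 in brain lines, 10.21, 10.31 and 10.49 in lung lines and 10.21, 10.09 and 10.13 in primary lines. Every brain line was above every primary line, and the lung lines overlapped both. The log2 difference was 0.45 ± 0.13 in brain against primary lines (SE, limma adjusted p = 0.093), 0.26 ± 0.13 in brain against lung lines (adjusted p = 0.375) and 0.19 ± 0.13 in lung against primary lines (adjusted p = 0.975). Without brain line 1 the difference against primary lines passed (0.58, adjusted p = 0.0398), and this was so in no other of 17 alternatives.

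Egf and Ereg were dim. Egf, which encodes the founding ligand, had levels of 4.64, 4.64 and 4.39 in brain lines, 5.06, 4.64 and 4.38 in lung lines and 4.74, 4.64 and 4.66 in primary lines, and the origins overlapped. Its log2 difference was -0.13 in brain against primary lines (95% interval -0.46 to 0.21) and -0.14 in brain against lung lines (-0.48 to 0.19). Ereg, which encodes epiregulin, a ligand of EGFR and ErbB4, lay under the unnamed median in all 9 lines, at 3.86 to 4.00 in brain, 3.86 in each lung line and 3.84 to 3.95 in primary lines. The same value to the last digit stood on 4 arrays for Ereg, on 3 for Egf and on 2 for Egfr and for Tgfa, which includes primary lines 1 and 3 of Tgfa. Such repeats occurred in 4 of the 9 genes and in 56.9% of all genes tested, and the part of this in the results was not tested.

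In RefSeq's gene order Epgn, Ereg, Areg and Btc stand next to one another on chromosome 5. Over that stretch Epgn and Btc had brain means of 4.82 and 5.59, against 5.51 and 6.37 in primary lines, while Ereg between them had 3.93 and 3.88. The next measured genes outward, chosen by position alone, were Mthfd2l, with means of 7.97 in brain and 7.80 in primary lines, and Parm1, with 5.24 in both.

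Read over the whole list, 1 of 9 genes rose, 1 fell and 7 did not pass in brain against primary lines, where limma called 3.13% of all genes (1.56% higher and 1.57% lower). In brain against lung lines 0 rose, 1 fell and 8 did not pass, against 1.98% of all genes (0.913% higher and 1.07% lower). In lung against primary lines limma called 0 of 9 genes and 0% of all genes. At an unadjusted p under 0.05 there were 5 of 9 genes in brain against primary lines (15.8% of all genes), 5 of 9 in brain against lung lines (14.9%) and 1 of 9, Egfr, in lung against primary lines (4.74%). In the F test 6 of 9 genes had an unadjusted p under 0.05, as had 14.6% of all genes. Between brain and primary lines the values did not overlap in 4 of 9 genes (17.8% of all genes), 2 of them higher (9.36%) and 2 lower (8.47%). Between brain and lung lines this was so in 5 of 9 genes (16.9%), 1 of them higher (8.27%) and 4 lower (8.63%). Between lung and primary lines it was so in 1 of 9 genes, which was higher (4.88%), where 8.71% of all genes did not overlap in either direction and 3.84% were lower. The median log2 change of the 9 was 0.01 in brain against primary lines and -0.14 in brain against lung lines, beside 0.0049 and -0.0096 over all genes. The spread within an origin differed widely between genes, with a pooled SD of 0.078 for Erbb2, 0.13 for Tgfa, 0.26 for Erbb3, 0.31 for Epgn and 0.44 for Btc.

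**Figure D3:**
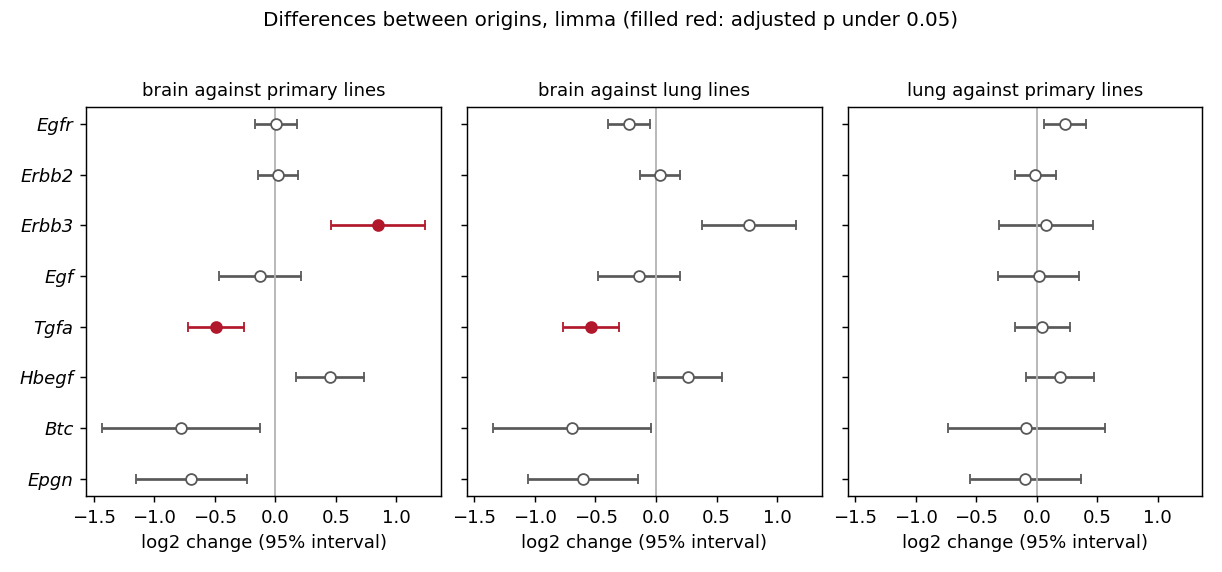
Log2 change (points, x axis) with its 95% interval (bars) from limma for the 8 genes above the unnamed median, in each comparison. Filled red points have an adjusted p under 0.05, namely Erbb3 (0.85) and Tgfa (-0.49) against primary lines and Tgfa (-0.54) against lung lines.

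The rest of the pathway was read from 4 lists that hold 71 other genes, of which 65 were measured. In brain against primary lines 3 of the 65 rose, 2 fell and 60 did not pass, a called share of 7.69% against 3.13% of all genes, and their median log2 change was -0.0051. In brain against lung lines 1 rose, 0 fell and 64 did not pass (1.54%, against 1.98% of all genes), with a median of 0.0077. Limma called 0 of 65 in lung against primary lines, where 4 of 65 had an unadjusted p under 0.05, as had 4.74% of all genes. That count was 20 of 65 in brain against primary lines (15.8% of all genes) and 16 of 65 in brain against lung lines (14.9%). The values did not overlap in 19 of 65 (17.8% of all genes) and 23 of 65 (16.9%), and in 11 of 65 between lung and primary lines (8.71%). These lists were chosen with earlier results of these data known. Of the other receptor and ligands 0 of 5 passed in any comparison, and none had an unadjusted p under 0.05. Among them, Nrg1 and Nrg2 encode neuregulins that bind ErbB3 and ErbB4. Nrg2 averaged 6.45 in brain, 6.69 in lung and 6.67 in primary lines, and Nrg1 averaged 6.52 in brain, 6.59 in lung and 6.57 in primary lines. Erbb4, Nrg3 and Nrg4 averaged under the unnamed median in at least 1 origin.

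In the list on shedding and ligand processing 1 of 12 rose and 1 fell in brain against primary lines (16.7%, against 3.13% of all genes). Adam12, a metalloprotease gene whose product can cut HB-EGF and other ligands free, had levels of 6.66, 7.60 and 7.71 in brain lines, 5.84, 5.96 and 5.71 in lung lines and 5.49, 5.43 and 5.48 in primary lines. All brain lines lay above the rest, with brain line 1 the lowest of them. Adam12 rose by 1.86 ± 0.23 on the log2 scale against primary lines (SE, limma adjusted p = 0.0037), a call kept in all 17 alternatives. It rose by 1.49 ± 0.23 against lung lines (adjusted p = 0.0147), a call lost without brain line 2 (0.0503) or lung line 1 (0.059), 2 (0.0635) or 3 (0.0596), with every probe set (0.065) and with only 6 arrays (0.0725).

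Adam9, a related protease gene, had levels of 8.98, 9.27 and 9.09 in brain lines, 9.58, 9.55 and 9.61 in lung lines and 9.52, 9.77 and 9.45 in primary lines, with every brain line below the rest. It fell by 0.47 against primary lines (SE 0.10, adjusted p = 0.0396), which passed in 6 of 17 alternatives, with adjusted p up to 0.132. Adam9 had an adjusted p of 0.0511 against lung lines, and 0.0369 with the mouse number as a block. The main ligand sheddase genes Adam17 (log2 difference 0.10 ± 0.14) and Adam10 (-0.03 ± 0.07), named here after their values were seen, did not pass in brain against primary lines.

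Among adaptors and transducers 1 of 24 measured genes rose and 1 fell in brain against primary lines (8.33%, against 3.13% of all genes), both of them subunits of PI 3-kinase. Pik3r1, which encodes the regulatory subunit p85 alpha, had levels of 7.39, 7.37 and 7.19 in brain lines, 7.64, 7.85 and 7.73 in lung lines and 7.91, 7.90 and 8.22 in primary lines. The 3 origins did not overlap, with lung lines in between. Pik3r1 fell by 0.69 against primary lines (SE 0.11, limma adjusted p = 0.0096), a call kept in 16 of 17 alternatives and lost with only 6 arrays (0.0518). Pik3cb, which encodes the catalytic subunit p110 beta, had levels of 8.96, 9.30 and 9.38 in brain lines, 8.78, 8.82 and 8.87 in lung lines and 8.86, 8.65 and 8.59 in primary lines. It rose by 0.51 ± 0.11 (SE, adjusted p = 0.0432), which passed in 6 of 17 alternatives, with adjusted p up to 0.145.

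In receptor attenuation and turnover 1 of 24 genes rose in brain against primary lines (4.17%, against 3.13% of all genes). It was Cblc, which encodes a ubiquitin ligase of the Cbl family, with levels of 6.66, 6.90 and 6.65 in brain lines, 6.28, 6.51 and 6.40 in lung lines and 6.30, 6.42 and 6.19 in primary lines. Every brain line was above every other line. Cblc rose by 0.44 ± 0.10 (SE, limma adjusted p = 0.0438), which passed in 5 of 17 alternatives, with adjusted p up to 0.133. The feedback inhibitor gene Errfi1, named after its values were seen, gave 0.20 ± 0.10 (adjusted p = 0.354). With the mouse number as a block, 4 genes of the pathway lists passed in brain against lung lines in place of 1: Adam12, Adam9, Cblc and Sh3kbp1, an adaptor gene of receptor uptake, named after its values were seen, whose log2 change was -1.14 ± 0.22 (adjusted p = 0.0369). Over all 19938 genes the block also raised the calls in that comparison, from 395 to 566.

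**Figure D4:**
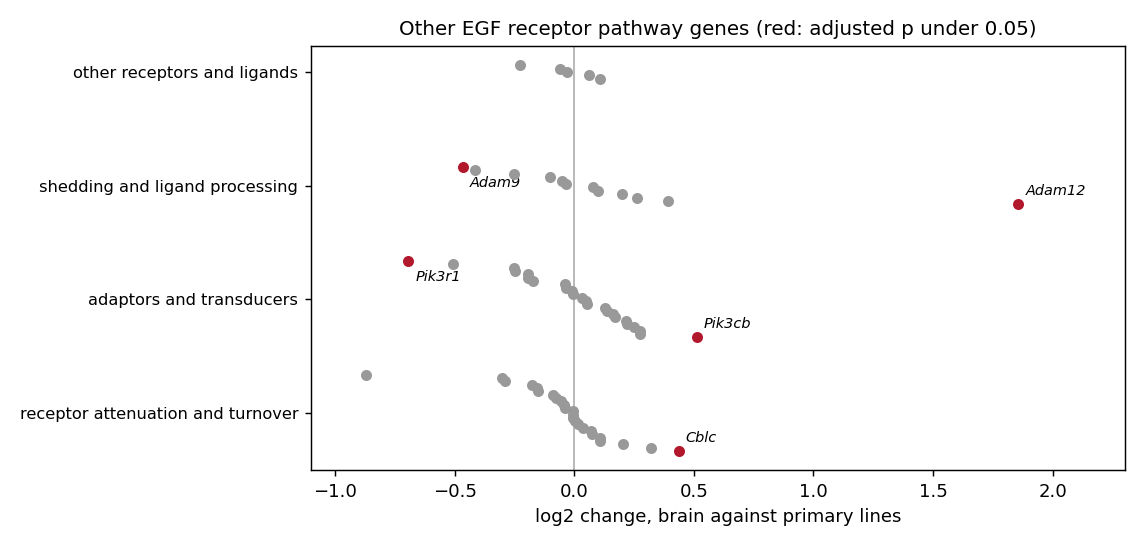
Log2 change in brain against primary lines (x axis) of the 65 measured genes of the 4 pathway lists, 1 point per gene, with vertical offsets only to separate points. The 5 named points in red passed (Adam12, Pik3cb and Cblc higher, Adam9 and Pik3r1 lower).

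For the 3 members with the smallest F test p, the genes with the closest pattern over the 9 lines were sought by the root mean square difference of log2 values, each centred on its own mean. The genes closest to Tgfa were Trappc11, which encodes a subunit of a vesicle trafficking complex (0.059), the sheddase gene Adam9 (0.072) and the lysosomal enzyme gene Hgsnat (0.074), where the SD of Tgfa itself was 0.28. Trappc11 averaged 7.83 in brain, 8.32 in lung and 8.34 in primary lines. All 3 lie on chromosome 8 between Insr and Galnt7 in RefSeq's gene order, a stretch chosen with earlier results known that holds 313 of the 19938 tested genes (1.57%), while Tgfa lies on chromosome 6. Closest to Erbb3 were the Wnt ligand gene Wnt10a (0.16), the macrophage growth factor gene Csf1 (0.17) and the peptide hormone gene Ucn2 (0.19), against an SD of 0.46. Closest to Epgn were the glycosyltransferase gene B4galnt4 (0.10), the tetraspanin gene Cd151 (0.14) and Sec14l1 (0.14), against an SD of 0.42, and B4galnt4 and Cd151 both lie on chromosome 7. These genes were picked for their likeness, so no test of it is given.

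**Figure D5:**
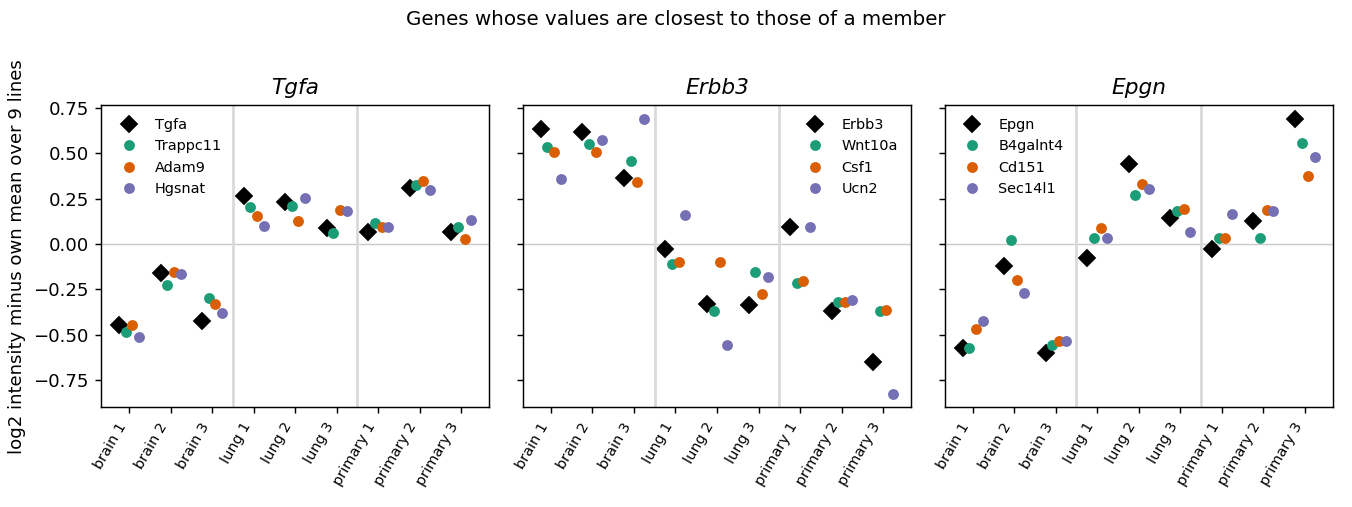
Log2 intensity minus each gene's own mean over the 9 lines (y axis) in every line (x axis) for Tgfa, Erbb3 and Epgn (black diamonds) and the 3 genes closest to each (circles). The points of Tgfa and its 3 closest genes lie below 0 in all brain lines and above 0 in all other lines.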

How the data were processed

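RNA of the 9 cultures, here called lines, was hybridised to Affymetrix Mouse Gene ST arrays, each line to its own. The deposited values are log2 intensities made by the authors with RMA (background correction, quantile normalization and a summary per probe set), per the submitters' processing notes. The log base was read from the range of the values, and no build or version is given in the sources used here. Neither depth nor a detection p is given, and precision is limited by how many arrays there are.

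Of 35557 probe sets, 21789 had exactly 1 symbol in the platform annotation, 1621 had several and 12147 had none. The brightest probe set per symbol gave 19938 genes, of which 19919 are in the RefSeq table of GRCm38.p6, used for names and gene order. Genes were tested with limma 3.58.1 (R 4.3.3, lmFit and eBayes, two-sided, 6 residual and 3.72 prior degrees of freedom) in 1 model of 9 arrays with a coefficient per origin, with p-values adjusted by Benjamini and Hochberg's method over all genes and a threshold of 0.05 for a call. Errors are standard errors unless marked SD. With 3 lines against 3, the smallest p of an exact permutation test is 0.1, and no such test was run. The steps were tested on simulated data. The p-values judge differences between origins against the spread between these lines within an origin, as moderated by limma.

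The members, the 4 pathway lists and the markers were chosen with earlier results of these data known, and 6 of 71 pathway genes are not analysed here. Named were all members, up to 4 called genes per pathway list (for a list with none, the 2 with the largest change above the unnamed median) and 3 most alike genes for each of 3 members. Further genes named are marked as chosen after their values were seen or by position.

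The labels give each origin mice 1 to 3. Between brain and lung lines, lines of equal number departed from their origins' means together (correlations across genes 0.284, 0.13 and 0.241), so the fit with the number as a block is given for that comparison. Between brain and primary lines the correlations were -0.0442 to 0.0666. Between lung and primary lines they were 0.221, 0.0785 and 0.00798 for numbers 1 to 3. The series' design text describes 9 separate animals, so whether the reused numbers mark anything shared is not known here. Alternatives tried were a further quantile normalization, centring on the array median over all probe sets, omission of the dimmest 33.3% of genes, limma's intensity trend with robust moderation, weighted arrays, the replicate block, omission of each line, all probe sets as features and a fit of the 6 arrays compared.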

Additional observations from a re-analysis of the deposited data

How the results depend on the processing

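The calls among the EGF family genes changed with the lines, the features and the settings used in the fit. Without 1 of the 9 lines, the number of family genes called was 0 to 2 in brain against primary lines (2 with all lines), 0 to 2 in brain against lung lines (1 with all lines) and 0 to 1 in the F test (1 with all lines). For pathway genes it was 2 to 3 in brain against primary (5 with all lines) and 0 to 2 in brain against lung lines (1 with all lines). In brain against primary lines the family count was 1 with median centring, and 0 with every probe set tested or only 6 arrays compared, while the pathway count was 2 with every probe set and 1 with 6 arrays. In brain against lung lines the family count was 2 with array weights, median centring, quantile normalization again, the replicate block and the removal of the dimmest genes, but 0 over every probe set or with 6 arrays. There the pathway count was 2 with array weights, the robust trend, quantile normalization again and the removal of the dimmest genes, 4 with the block, but 0 over every probe set or with 6 arrays. In the F test the family count was 2 with array weights, the robust trend, quantile normalization again, the block and the removal of the dimmest genes, but 0 over every probe set. The tests over every probe set adjust over 35557 features, and those of 6 arrays have fewer samples.

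Of 30 log2 changes followed over 510 alternative values, 412 kept their direction and side of the threshold, 68 lost a call, 9 gained one and 21 changed sign, of which 0 were called. With 1 line left out, lung against primary lines ranged from -0.45 to 0.26 for Btc, -0.17 to 0.17 for Egf, -0.24 to 0.12 for Epgn, -0.066 to 0.037 for Erbb2 and -0.094 to 0.28 for Erbb3. Brain against primary lines ranged from -0.027 to 0.033 for Egfr and -0.015 to 0.069 for Erbb2, and brain against lung lines from -0.30 to 0.042 for Egf and -0.0053 to 0.087 for Erbb2. In lung against primary lines array weights gave -0.067 for Egf, 0.076 for Epgn and -0.036 for Erbb3, and Erbb2 was 0.0052 with median centring and 0.0023 with quantile normalization again. Over all genes, median centring split the calls of brain against primary lines into 313 higher and 199 lower, against 311 and 313 in the deposited scaling. The calls over all genes were 624 in brain against primary lines and 395 in brain against lung lines. Those counts were 246 and 92 with every probe set, 197 and 107 with 6 arrays and 839 and 566 with the replicate block. They were 831 and 533 with array weights, 784 and 516 with quantile normalization again and 659 and 444 with the robust trend. Median centring gave 512 and 306, and 828 and 511 of 13292 genes passed without the dimmest. With 1 line left out the counts ranged from 273 to 556 and from 69 to 417. The cause of these changes was not tested.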
